A study of Mus musculus with 6 samples.

Results

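The peaks described here are those of the zinc-finger protein CTCF in windows around 9 genes that mark regulatory T (Treg) cells, namely Foxp3, Il2ra, Cd28, Ctla4, Icos, Ikzf2, Ikzf4, Tnfrsf18 and Tnfrsf4. A peak was taken when it overlapped 1 of 6 fixed windows of the mouse genome (mm39), with no use of its signal. The 6 windows held 341 of the 172581 peaks on chromosomes 1 to 19, X and Y. Merged across libraries, these peaks formed 130 of 94951 regions. Binding was profiled with CUT&RUN, an assay that releases and sequences the DNA next to a protein by means of an antibody-tethered nuclease. The cells were Treg cells of the mouse thymus, in 3 libraries of WT genotype and 3 labelled Cgas Knockout (Cgas_KO), which should lack the DNA sensor cGAS. The study set out to profile CTCF on the genome in both. The labels give no strain, age or sex, do not say how the knockout was made or in which cells, and do not say whether replicates came from separate mice. The p-values therefore measure only the spread between these libraries, which may be technical.

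Treg cells hold immune responses in check, and many of them arise in the thymus. Foxp3 is the transcription factor that defines them, and Ikzf2 (Helios) and Ikzf4 (Eos) are zinc-finger factors of the Ikaros family found in these cells. Il2ra encodes CD25, a chain of the interleukin-2 receptor, on whose signal Treg cells depend. Cd28 and Icos encode costimulatory receptors and Ctla4 an inhibitory one that competes with CD28 for its ligands. Tnfrsf18 (GITR) and Tnfrsf4 (OX40) are receptors of the tumour necrosis factor receptor family. CTCF binds a long DNA motif, and together with cohesin it anchors chromatin loops and marks the borders of domains in which enhancers and promoters meet.

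The windows were chrX:7350000-7560000 for Foxp3, chr2:11550000-11800000 for Il2ra, chr1:60700000-61150000 for Cd28, Ctla4 and Icos, chr1:69450000-69850000 for Ikzf2, chr10:128350000-128600000 for Ikzf4 and chr4:156000000-156220000 for Tnfrsf18 and Tnfrsf4. In the RefSeq gene table (GRCm38.p6, used for gene order only), the protein-coding neighbours are Ppp1r3f and Ccdc22 for Foxp3, Rbm17 and Il15ra for Il2ra, Rps26 and Suox for Ikzf4, and Erbb4 and Spag16 for Ikzf2. Raph1 lies before Cd28 and Pard3b after Icos, while Sdf4 lies before Tnfrsf4 and Ttll10 after Tnfrsf18. Because no mm39 annotation or sequence was used here, a peak is given by its position and was not assigned to a gene, promoter, exon or intron.

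The lists held 27128 to 28926 peaks in WT and 28052 to 31707 in Cgas_KO. Peak height, the highest signal in a peak, is the authors' own value for that peak and is used here only within a list. It is given as its percentile in the list (100 is the tallest peak), or as a multiple of the median height of the list. Heights fall on whole steps of signal, with the median peak at 11 to 14 steps, so that many peaks tie. A step was 0.190 to 0.212 units of signal in WT and 0.117 to 0.120 in Cgas_KO, so the scale of the signal moved with the genotype, and its part in the differences below was not tested. The read depth is unknown. Median peak width was 2569 bp in Cgas_KO replicate 3 and 3219 to 3607 bp in the other libraries.

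The windows were rich in peaks, and the Ikzf4, Il2ra and Tnfrsf18-Tnfrsf4 windows were the richest. Averaged over the 6 libraries, the Ikzf4 window held 5.67 peaks per 100 kb, Il2ra 4.13, Tnfrsf18-Tnfrsf4 4.02, Cd28-Ctla4-Icos 2.52, Ikzf2 2.08 and Foxp3 1.83. Over the 10250 bins of 250 kb with at least 1 peak, the median density was 0.733 peaks per 100 kb and the 90th percentile 2.53. The Ikzf4 window was at percentile 99.6 of these bins and the Foxp3 window at percentile 80.8. Against bins of chromosome X alone, whose median was 0.533, the Foxp3 window stood at percentile 96.8.

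**Figure D1:**
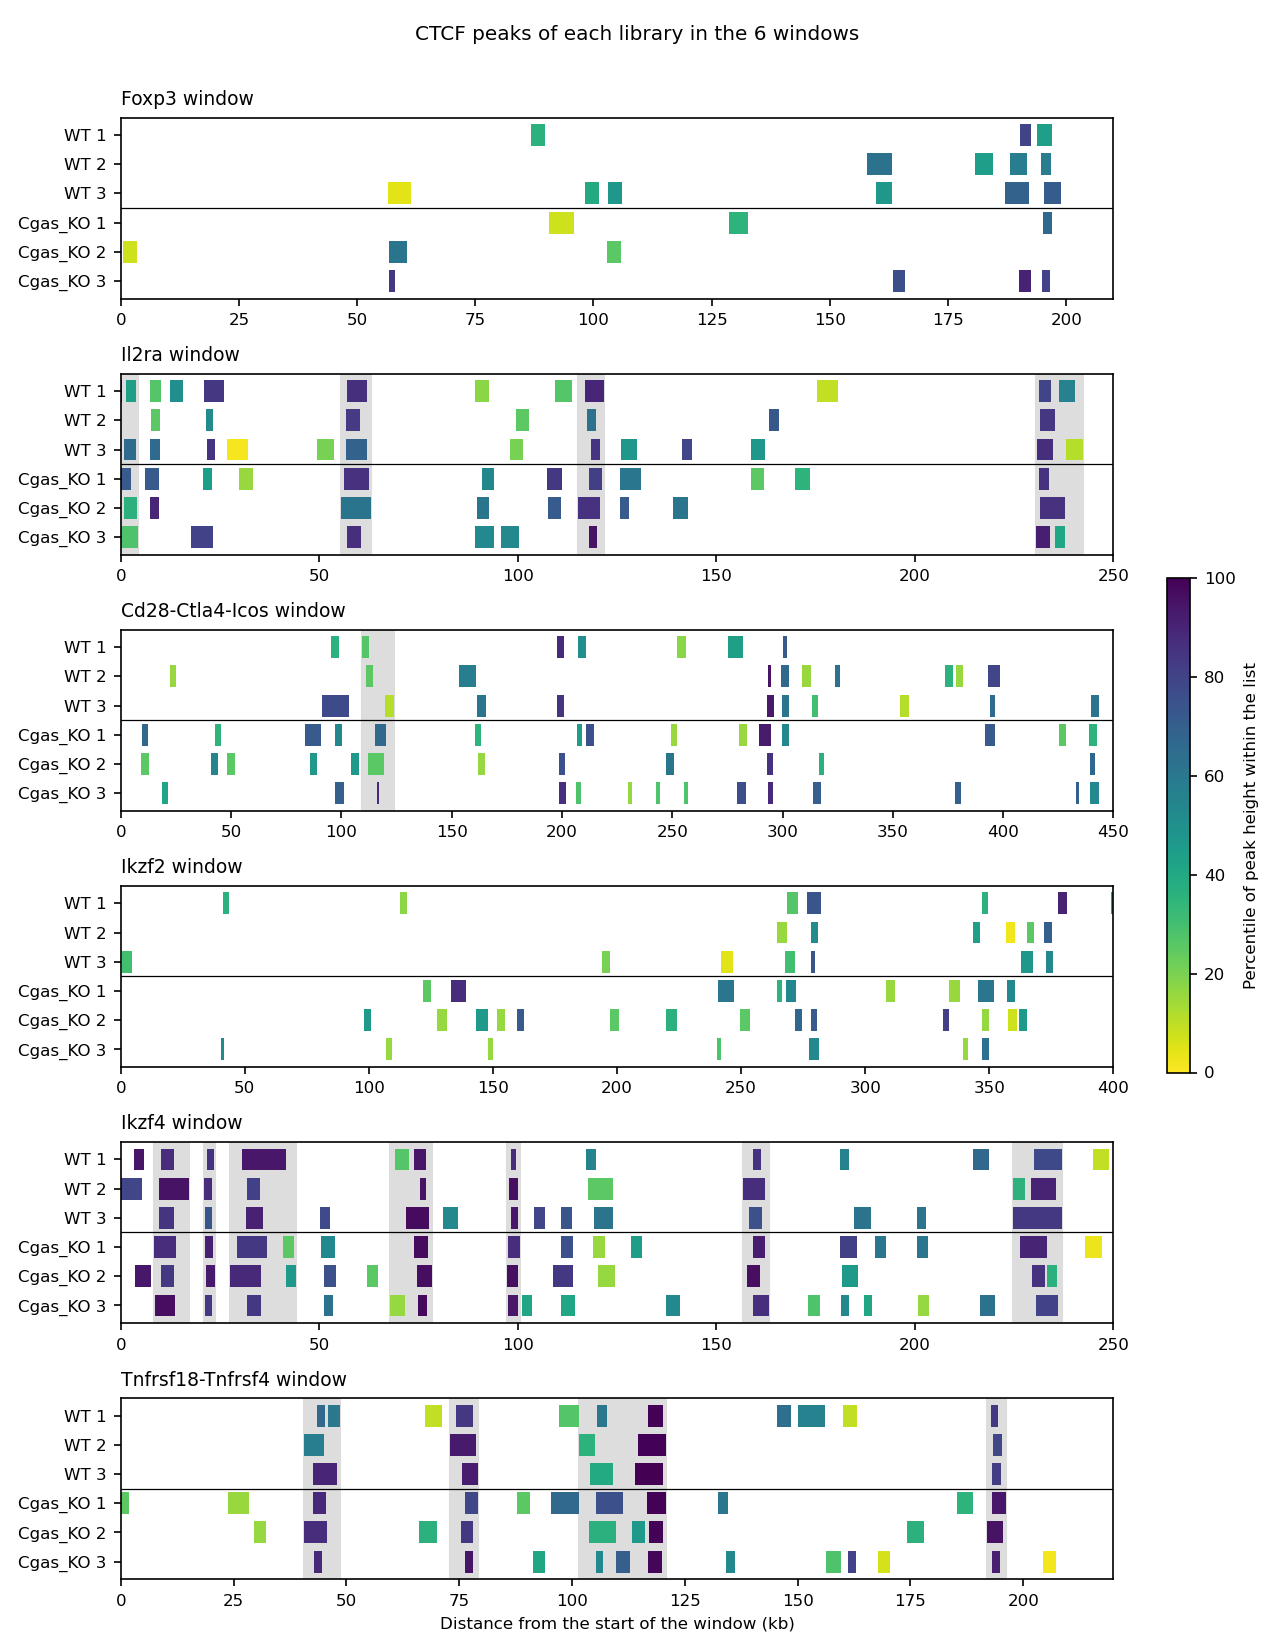
CTCF peaks of each library in the 6 windows. The x axis gives the distance from the start of the window in kb, each row is 1 library (WT above the line, Cgas_KO below), colour gives the percentile of peak height within the list, and grey marks the 17 regions called in all 6 lists. The Ikzf4 window has 7 grey regions and the Tnfrsf18-Tnfrsf4 window 5, while the Foxp3 and Ikzf2 windows have 0.

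Called regions recurred more often in the windows than over the genome. Of the 130 regions, 17 (13.1%) were called in all 6 lists, against 5.16% of all 94951 regions, and 49 (37.7%) were called in 3 or more lists, against 17.0%. Regions of a single list numbered 62 (47.7%), against 69.9% of all regions. These shares are descriptions, since peaks that lie close together also merge more readily. Where a region was shared by all lists, its peaks were as tall as such regions are elsewhere. The median of the mean percentile was 85.8 for the 17 and 85.4 for all 4896 regions called in all lists, and 14 of the 17 (82.4%) had a mean percentile of 75 or more, against 73.0% of the 4896.

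**Figure D2:**
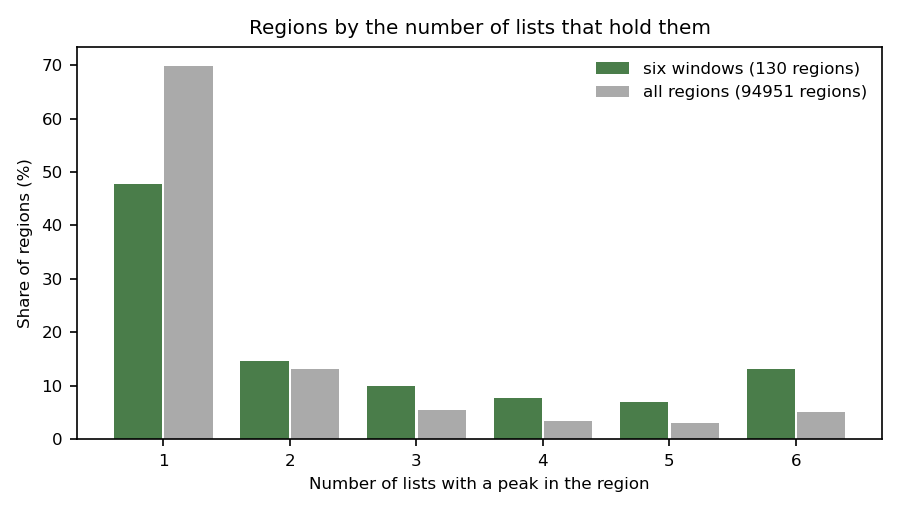
Share of regions (y axis, %) by the number of lists with a peak in them (x axis), for the 130 regions of the 6 windows and for all 94951 regions. The windows have a smaller share of regions in 1 list, 47.7% against 69.9%, and a larger share in all 6, 13.1% against 5.16%.

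At the Foxp3 locus, the shortest window, fewer peaks were called on average over the libraries than in the other windows, and no region recurred in every library. The window held 3, 4 and 6 peaks in the WT lists and 3, 3 and 4 in the Cgas_KO lists. The groups overlapped. Of its 12 regions 0 were called in all 6 lists and 3 in 3 or more. On chromosome X as a whole, 85 of 4447 regions (1.91%) were called in all 6 lists and 8.86% in 3 or more, against 25% in the window. The steadiest signal lay near the end of the window. The region chrX:7543799-7548906 was called in all 3 WT lists, at percentiles 44.1, 57.9 and 71.1, and in Cgas_KO replicates 1 and 3, at 66.7 and 80.2. Next to it, chrX:7537105-7542658 was called in all 3 WT lists, at percentiles 79.7, 57.9 and 68.5, and in Cgas_KO replicate 3 only, at 90.4. The value of 90.4 was the highest percentile of any peak in the window. A stretch of 53.1 kb, chrX:7353364-7406485, was free of peaks in all lists.

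The Ikzf2 window, though 400 kb long, likewise had 0 of 27 regions called in all 6 lists, and 17 of the 27 came from a single list. It held 7, 6 and 7 peaks in WT and 9, 14 and 7 in Cgas_KO, where Cgas_KO replicate 2 alone had 14. The median percentile of its peaks, 36.2, 34.9 and 30.3 in WT and 53.4, 41.1 and 28.1 in Cgas_KO, was the lowest of the 6 windows in WT. Its most recurrent tall region was chr1:69726589-69732295, called in all lists except Cgas_KO replicate 1. Percentiles there were 74.2, 51.9 and 73.5 in WT and 71.8 and 52.7 in Cgas_KO. The tallest peak of the window in any list, at percentile 90.5 in WT replicate 1, was in no other list. The longest peak-free stretch, 54.1 kb, was chr1:69493797-69547900.

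Ikzf4, the other Ikaros-family gene, lay in the densest window, with 7 of 23 regions called in all 6 lists and no peak-free stretch above 16.0 kb. The strongest was chr10:128417805-128428378, at percentiles 94.5, 95.02 and 96.9 in WT and 97.2, 96.7 and 97.8 in Cgas_KO. It stood 3.59 ± 0.758 times as high as the median peak of its list in WT and 2.98 ± 0.0412 times in Cgas_KO (SD, n = 3). These multiples, 3.14, 3.15 and 4.46 in WT and 2.93, 3 and 3 in Cgas_KO, did not overlap. Of all 4896 regions called in all lists, 33.1% were lower in Cgas_KO without overlap on this scale. The percentiles of the region overlapped, and their mean was higher in Cgas_KO, at 97.2 against 95.5. The points of highest signal in the 6 lists lay within 63 bp of one another, although the peaks themselves spread over 10574 bp. Next came chr10:128447387-128450600, with percentiles of 88.2, 96.1 and 93.9 in WT and 87.5, 96.4 and 93.9 in Cgas_KO, and points of highest signal within 327 bp. Both genotypes overlapped there. The other 5 were chr10:128358497-128367075, chr10:128371061-128373862, chr10:128377622-128394018, chr10:128506829-128513352 and chr10:128574596-128587101, with mean percentiles of 82.2 to 89.1 in WT and 85.3 to 91.6 in Cgas_KO. All 7 thus had a mean percentile above 80 in both genotypes.

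The Il2ra window held 12, 8 and 13 peaks in WT and 12, 9 and 8 in Cgas_KO, and 4 of its 18 regions were called in all 6 lists. The most even of them was chr2:11780605-11792345, at percentiles 79.7, 84.3 and 87.1 in WT and 85.7, 85.6 and 91.8 in Cgas_KO. Among these 4, the region with the best-aligned signal was chr2:11665165-11671668, whose points of highest signal lay within 278 bp. Its percentiles were 89.1, 62.8 and 84.9 in WT and 81.5, 85.6 and 95.3 in Cgas_KO. WT replicate 2 was the low one, and the groups overlapped. At chr2:11605417-11613042 the percentiles were 86.3, 82.8 and 68.5 in WT and 85.7, 61.5 and 86.5 in Cgas_KO. The last of the 4, chr2:11543339-11554256, begins before the window, and its points of highest signal lay up to 7370 bp apart, so that it joins separate peaks. Its percentiles were 89.1, 66.8 and 71.1 in WT and 71.6, 46.1 and 28.1 in Cgas_KO. The values 71.1 (WT replicate 3) and 46.1 (Cgas_KO replicate 2) are those of peaks outside the window. Inside it, these lists had peaks at 65.5 and 36.2. The score of the region in the limma test described below, which includes the outside peaks, was lower in Cgas_KO by more than that of any other of the 17 regions. It was -0.84 (limma adjusted p = 0.553) and turned to 0.62 with total signal. No peak of any list fell in the 49.9 kb of chr2:11730699-11780604.

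In the window of the costimulatory and inhibitory receptors Cd28, Ctla4 and Icos, 1 of 29 regions was called in all 6 lists, and it was a chain of separate peaks. This region, chr1:60809463-60824063, had points of highest signal up to 8352 bp apart and percentiles of 26.9, 25.4 and 11.1 in WT. In Cgas_KO the values were 66.7, 25.8 and 88.6, so that the peaks were low in WT and in Cgas_KO replicate 2. The peak that stood out was chr1:60989157-60996018. It was called in 5 lists, at percentiles 94.7 and 93.6 in WT replicates 2 and 3 and 92.7, 85.6 and 88.6 in Cgas_KO, with points of highest signal within 83 bp, and WT replicate 1 had no peak there. A second tall region, chr1:60897666-60901827, was in WT replicates 1 and 3 at percentiles 88.2 and 84.9 and in Cgas_KO replicates 2 and 3 at 75.6 and 86.5. It was missing from 1 list of either genotype. Which of the 3 genes these peaks lie next to was not analysed here.

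The window of the receptor genes Tnfrsf18 and Tnfrsf4 held the tallest window peak of every list. At chr4:156113371-156120821 the height was 166, 117 and 178 steps in WT and 83, 96 and 45 steps in Cgas_KO. This peak ranked 127 of 27356, 211 of 28926 and 98 of 27128 in the WT lists. In the Cgas_KO lists it ranked 212 of 29412, 149 of 28052 and 380 of 31707. Its percentile was thus 98.8 or more in all lists, and its points of highest signal lay within 51 bp of one another. The region chr4:156072966-156079209 was aligned within 43 bp, at percentiles 84.0, 93.1 and 92.4 in WT and 78.8, 83.8 and 94.6 in Cgas_KO. At chr4:156191982-156196169 the percentiles were 84.0, 79.3 and 82.4 in WT and 93.9, 95.1 and 91.8 in Cgas_KO, all 3 above all WT libraries. As multiples of the list median, however, its heights overlapped, at 1.93, 1.62 and 1.92 in WT and 2.14, 2.54 and 1.82 in Cgas_KO. At chr4:156040564-156048655 the percentiles were 66.7, 57.9 and 89.6 in WT and 88.9, 87.3 and 88.6 in Cgas_KO. The fifth region in all lists, chr4:156101517-156112928, was low, at percentiles 60.3, 35.6 and 39.3 in WT and 75.6, 36.2 and 70.1 in Cgas_KO. It joins separate peaks. The WT replicate 2 peak, chr4:156101517-156105103, did not overlap the peak that gave 70.1 in Cgas_KO replicate 3, chr4:156109699-156112928. The other 16 regions of this window were in 1 or 2 lists each.

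**Figure D3:**
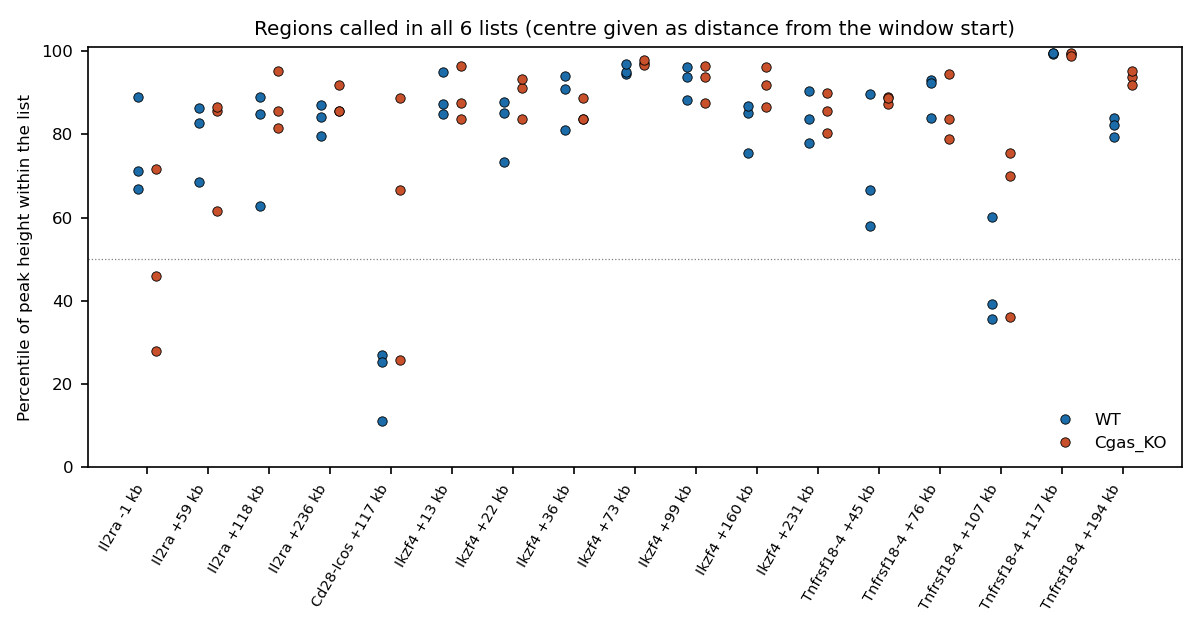
Percentile of peak height within the list (y axis) for the 17 regions called in all 6 lists, with 1 point per library. Labels on the x axis name the window and the centre of the region as distance from the window start (Cd28-Icos is the Cd28-Ctla4-Icos window, Tnfrsf18-4 the Tnfrsf18-Tnfrsf4 window). The Tnfrsf18-Tnfrsf4 region at +117 kb is at 98.8 or more in all libraries, and the region at +194 kb is the only one whose genotypes do not overlap.

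The points of highest signal were close together in a share of the window regions near that of all regions. In 3 of the 17 regions (17.6%), the points of all 6 lists lay within 200 bp, against 20.8% of all 4896 regions called in all lists. These 3 were the regions named above with spans of 51, 43 and 63 bp, and the region at chr4:156191982-156196169 was just outside, with 201 bp.

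The question of whether Cgas_KO cells had more or fewer CTCF peaks at these genes was asked first over all 6 windows. The WT lists held 53, 43 and 55 window peaks, 50.3 ± 6.43 (SD, n = 3), and the Cgas_KO lists 66, 62 and 62, 63.3 ± 2.31 (SD, n = 3). Every Cgas_KO list had more than every WT list, a difference of 13 peaks or 1.26-fold (exact permutation test, two-sided here and throughout, p = 0.1, adjusted by the Benjamini-Hochberg method to 0.4 over 4 summed measures). With 3 libraries against 3, p cannot fall below 0.1. The Cgas_KO lists were also longer, by 1.07-fold on average. Per 1000 peaks of the list, a scale chosen after the data were examined, the windows held 1.94, 1.49 and 2.03 peaks in WT and 2.24, 2.21 and 1.96 in Cgas_KO, and the groups overlapped (exact permutation p = 0.2). In the 50% of each list with the greatest height the difference was 6.33 peaks (exact permutation p = 0.2). Window peaks at percentile 75 or more numbered 19, 15 and 19 in WT and 21, 20 and 24 in Cgas_KO (exact permutation p = 0.1, unadjusted). Those under percentile 75 numbered 34, 28 and 36 in WT and 45, 42 and 38 in Cgas_KO (exact permutation p = 0.1, unadjusted). In neither set did the groups overlap.

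In 2 of the 6 windows the counts did not overlap between genotypes, and Cgas_KO was higher in both. The Cd28-Ctla4-Icos window held 7, 10 and 10 peaks in WT and 15, 12 and 14 in Cgas_KO, a difference of 4.67 (exact permutation p = 0.1, adjusted 0.3 over 6 windows). The Ikzf4 window held 13, 10 and 14 peaks in WT and 16, 15 and 17 in Cgas_KO, a difference of 3.67 (exact permutation p = 0.1, adjusted 0.3). Both pairs were still apart per 1000 peaks of the list. Over the genome, 3.53% of 250 kb bins with a peak had counts that were higher in Cgas_KO without overlap, and 5.67% had counts without overlap in either direction. Among bins with a mean of 5 or more peaks these shares were 6.89% and 9.11%. The bins were not matched to the 2 windows, which held a mean of 11.3 (Cd28-Ctla4-Icos, 450 kb long) and 14.2 peaks (Ikzf4). In the taller 50% of each list, which holds fewer peaks to count, the difference was 2.33 in the Cd28-Ctla4-Icos window (exact permutation p = 0.3). There it was 4.67 over the whole lists. In the Ikzf4 window it was 0 in the taller 50%. At Ikzf4 the difference was thus made up of peaks in the lower 50% of the lists.

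**Figure D4:**
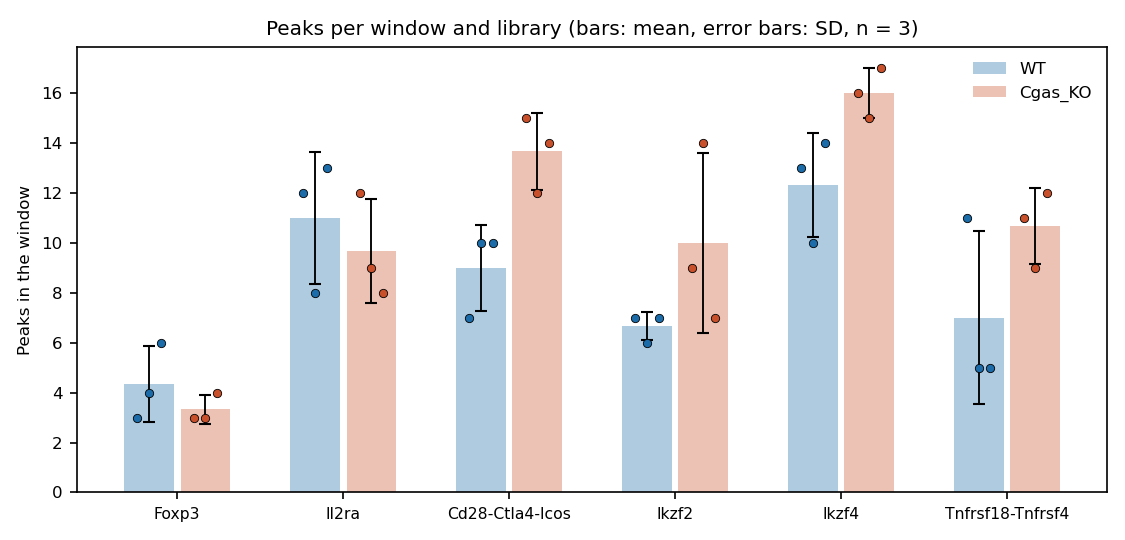
Peaks in each window (y axis) by library, WT in blue and Cgas_KO in orange. Bars give the mean, error bars the SD (n = 3) and points the libraries. Only the Cd28-Ctla4-Icos and Ikzf4 windows show every Cgas_KO library above every WT library.

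In the other 4 windows the counts overlapped. Tnfrsf18-Tnfrsf4 held 11, 5 and 5 peaks in WT and 11, 9 and 12 in Cgas_KO, a difference of 3.67 (exact permutation p = 0.3, adjusted 0.45), which was 5.67 without WT replicate 1. The difference was 3.33 at Ikzf2 (exact permutation p = 0.3, adjusted 0.45) and 1.33 there without Cgas_KO replicate 2. It was -1.33 at Il2ra (exact permutation p = 0.8, adjusted 0.8) and -1 at Foxp3 (exact permutation p = 0.7, adjusted 0.8). With 1 library left out it was -2.83 (WT replicate 2) to -0.33 (WT replicate 3) at Il2ra, with -2.5 without Cgas_KO replicate 1, -0.5 without Cgas_KO replicate 3 and -0.83 without WT replicate 1. At Foxp3 it was -1.67 (WT replicate 1) to -0.17 (WT replicate 3). In the taller 50% of each list the difference was 2 at Ikzf2 (exact permutation p = 0.1, unadjusted). It was 1 at Tnfrsf18-Tnfrsf4, 1 at Il2ra and 0 at Foxp3 in that setting. The length covered by peaks in all 6 windows was 185, 157 and 216 kb in WT and 251, 224 and 173 kb in Cgas_KO (exact permutation p = 0.4, adjusted 0.533). Cgas_KO replicate 3, whose peaks were the narrowest, covered the least of its group. The difference of 29.8 kb was 51.4 kb without it, 44.8 kb without WT replicate 3, 15.3 kb without WT replicate 2 and 12.4 kb without Cgas_KO replicate 1.

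Peaks found in only 1 library were more numerous in Cgas_KO. Of the 62 regions called in a single list, 41 came from Cgas_KO lists and 21 from WT lists, a Cgas_KO share of 66.1%, against 54.5% of such regions over the genome. By window the numbers for Cgas_KO and WT were 12 and 5 at Ikzf2, 10 and 2 at Tnfrsf18-Tnfrsf4, 8 and 5 at Cd28-Ctla4-Icos, 6 and 2 at Ikzf4, 4 and 3 at Foxp3 and 1 and 4 at Il2ra. Their median percentile was 28.1 in Cgas_KO and 39.3 in WT, against 35.2 and 26.9 for such regions over the genome, where the order was the reverse. Peaks that overlapped no peak of another list were 15.1%, 14.0% and 12.7% of window peaks in the WT lists and 21.2%, 21.0% and 22.6% in the Cgas_KO lists, and these shares did not overlap. Over all peaks the shares were 35.5%, 37.7% and 35.4% in WT and 38.7%, 38.9% and 43.8% in Cgas_KO, which did not overlap either.

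No window region separated the genotypes fully. Of the 49 regions in 3 or more lists, 0 had a peak in every list of 1 genotype while lacking one in the other, against 4.16% of such regions over the genome. Called in all 3 Cgas_KO lists and in at most 1 WT list were 5, or 10.2% of the 49, against 5.79% over the genome. All 5 had a peak in 1 WT list. They were chr2:11639207-11644070 in the Il2ra window, chr1:60947311-60957348 and chr1:61138881-61143424 in the Cd28-Ctla4-Icos window, and chr10:128400280-128404331 and chr10:128458764-128464326 in the Ikzf4 window. Called in all 3 WT lists and in at most 1 Cgas_KO list were 2, or 4.08%, against 8.03% over the genome. Both had a peak in 1 Cgas_KO list. They were chrX:7537105-7542658 in the Foxp3 window, described above, and chr1:60999471-61002910 in the Cd28-Ctla4-Icos window. The latter was at percentiles 72.0, 66.8 and 61.9 in WT and 53.4 in Cgas_KO replicate 1.

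The 5 regions differed in height. The tallest on average was chr10:128458764-128464326, at percentiles 75.6, 83.8 and 41.0 in Cgas_KO and 73.5 in WT replicate 3, with points of highest signal within 152 bp. At chr10:128400280-128404331 the percentiles were 53.4, 75.6 and 62.4 in Cgas_KO and 77.5 in WT replicate 3. At chr2:11639207-11644070 they were 53.4, 61.5 and 52.7 in Cgas_KO and 17.4 in WT replicate 1. Those of chr1:61138881-61143424 were 35.2, 67.2 and 52.7 in Cgas_KO and 61.9 in WT replicate 3. The region chr1:60947311-60957348 was the lowest, at 15.3, 61.5 and 28.1 in Cgas_KO and 17.4 in WT replicate 1, and its points of highest signal lay up to 8849 bp apart. Where a WT list had a peak at the 2 Ikzf4 regions, it was thus within or above the Cgas_KO range.

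Whether peaks in the windows ranked higher or lower in their lists was compared next. The median percentile of window peaks was 56.0, 62.8 and 65.5 in WT and 60.6, 58.0 and 62.4 in Cgas_KO, a difference of -1.06 within the replicate spread (exact permutation p = 0.7, adjusted 0.7). By window it did not overlap at Il2ra alone, with medians of 53.3, 64.8 and 65.5 in WT and 66.1, 71.8 and 66.5 in Cgas_KO (exact permutation p = 0.1, adjusted 0.6 over 6 windows). Of the 5127 bins of 250 kb with a peak in every list, 11.8% had medians without overlap in either direction and 5.21% were higher in Cgas_KO.

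Relative height was tested with limma over the 4896 regions that every list called, after turning ranks within a library into normal scores. Of the 17 window regions 0 passed a Benjamini-Hochberg adjusted p of 0.05, as did 0 of the 4896 (0%). Before adjustment, p was under 0.05 for 2 of the 17 (461 of the 4896, 9.42%). One was chr4:156191982-156196169, whose score was higher in Cgas_KO by 0.80 (SE 0.20, limma adjusted p = 0.382), in 3 of 3 libraries. It was the only 1 of the 17 whose percentiles did not overlap, while over the 4896 regions 16.2% did not overlap and 9.4% were higher in Cgas_KO without overlap. The other was the chain of separate peaks at chr1:60809463-60824063, higher by 1.34 (SE 0.53, limma adjusted p = 0.505). Of the 17 scores 11 were higher and 6 lower in Cgas_KO. Over all 4896 regions 48.4% were higher.

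The tall Tnfrsf18-Tnfrsf4 peak stood less high over the median peak of its list in every Cgas_KO library than in any WT library. Its rank score differed by -0.23 (SE 0.21, limma adjusted p = 0.760), on a scale near its upper end in all libraries. As a multiple of the median peak of the list, its height was 11.9, 9 and 13.7 in WT and 5.93, 7.38 and 4.09 in Cgas_KO, or 11.5 ± 2.36 and 5.80 ± 1.65 (SD, n = 3; exact permutation p = 0.1). The groups did not overlap, and the Cgas_KO mean was 0.504 times the WT mean. On the log2 scale of signal over the median of the shared regions the difference was -0.70 (SE 0.24, limma adjusted p = 0.175). This was the pattern of tall regions in general. Among the 430 regions in all lists with a mean height of at least 5 list medians, a bound chosen after the data were examined, 81.2% were lower in Cgas_KO without overlap, and the median ratio of Cgas_KO to WT was 0.598. Of these, 48 (11.2%) had a ratio as low as the peak at Tnfrsf18-Tnfrsf4 or lower. Over all 4896 regions 33.1% were lower without overlap.

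**Figure D5:**
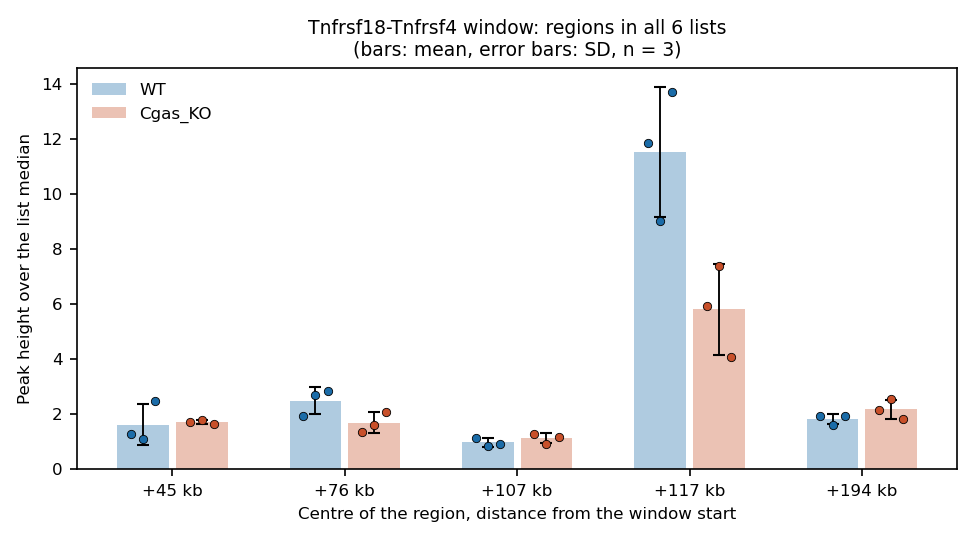
Peak height as a multiple of the median height of the list (y axis) at the 5 regions of the Tnfrsf18-Tnfrsf4 window called in all 6 lists, placed by distance from the window start (x axis). Bars give the mean, error bars the SD (n = 3) and points the libraries. The region at +117 kb is 9 to 13.7 times the median in WT and 4.09 to 7.38 times in Cgas_KO, and the other 4 are at 2.85 times or less.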

How the data were processed

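CTCF CUT&RUN libraries of thymic Treg cells were grouped by the genotype in their titles, 3 WT and 3 Cgas_KO, with 1 peak list each. Bowtie2 and SEACR 1.3 were used, per the submitters' processing notes, and the authors called peaks per library. The names of the lists carry 0.01, non and stringent, the form of SEACR's settings for a numeric threshold without control scaling, which the labels do not state. With such a threshold SEACR keeps a top share of signal blocks, so that peak numbers also follow the number of blocks. The deposited values are signal, as total and maximum per peak. Its scaling is not stated in the sources used here. The notes name mm10 and mm39, and the lists carry sequence names of mm39.

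The 6 windows, members and lists of genes were chosen with earlier results of these data known. Positions count from 1. A peak belonged to a window at 1 bp of overlap, and regions were made by joining peaks of any list that overlapped by 1 bp. Where a list had several peaks in a region, the tallest was used, even when it lay outside the window. Percentiles are ranks of maximum signal among the peaks of a list on chromosomes 1 to 19, X and Y, with ties averaged. Heights were whole multiples of 1 step within 0.01 step for 100% of peaks under 200 steps. Values per library were compared with two-sided exact permutation tests over 20 assignments, with Benjamini-Hochberg adjustment. Relative height was tested with limma 3.58.1 (R 4.3.3). The merging and the limma step were tested on simulated data. Regions were named when called in all 6 lists, or in all lists of 1 genotype and at most 1 of the other, as was the tallest window peak of each list. Other regions named, those called in 4 or 5 lists, were chosen after their values were seen, as were the peak-free stretches. Bins of 250 kb gave the background of peak counts and of median percentiles, the latter added after the results were seen. The rest was done with scipy 1.17.1, pandas 2.3.3 and numpy 2.4.6 under Python 3.11.15, with plots by matplotlib 3.10.9. Alternatives were shortened lists, windows widened by 50 kb, merging within 500 bp, midpoints within 200 bp, 50% coverage, log2 values, total signal, each library left out in turn and a block for the replicate number. Peaks per 1000 peaks of the list were added after seeing the data.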

Additional observations from a re-analysis of the deposited data

How the results depend on the processing

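Depth is unknown, and 3 libraries per genotype limit the precision. The difference in window peaks was 9.33 to 15.3 with a library left out, 11 with lists cut to the shortest and 15.3 with wider windows, and no setting can pass 0.05. The median percentile difference turned to 1.49 with lists cut to the shortest and 3.62 with total signal, and was -3.78 to 0.97 with a library left out, positive without WT replicate 3 or Cgas_KO replicate 2. The Il2ra count difference turned to 1 in the taller 50% of lists. Window regions in all lists numbered 8 by midpoints within 200 bp and 1 at 50% coverage. Those in all WT and no Cgas_KO list numbered 2 by midpoints, 1 at 50% coverage and 0 to 2 with a library left out. Those in all Cgas_KO and no WT list numbered 1 at 50% coverage and 0 to 4 with a library left out. With at most 1 list of the other genotype there were 4 for WT and 4 for Cgas_KO at 50% coverage. By midpoints there were 3 for WT and 2 for Cgas_KO, while the main setting gave 2 and 5. With a library left out there were 2 to 7 for WT and 6 to 12 for Cgas_KO, a rise built into the eased requirement. The other causes were not tested.

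Over all regions limma called 1 on the log2 scale, outside the windows, and 0 otherwise. The scores of 6 of the 17 window regions changed sign under at least 1 setting. On the log2 scale, chr10:128358497-128367075 gave -0.056 and chr2:11605417-11613042 0.027. With total signal the values were 0.31 at chr10:128377622-128394018, 0.37 at chr10:128447387-128450600, -0.29 at chr10:128574596-128587101, 0.62 at chr2:11543339-11554256 and 0.44 at chr2:11605417-11613042. With a library left out they were -0.33 to 0.25 at chr10:128358497-128367075, -0.27 to 0.20 at chr10:128447387-128450600, -0.14 to 0.22 at chr10:128574596-128587101 and -0.30 to 0.29 at chr2:11605417-11613042.

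Libraries with the same replicate number were no more alike than others. The correlations of same-numbered deviations were -0.0169 to -0.0129, and those of differently numbered ones -0.0026 to 0.0171. These values cannot show whether the libraries were prepared in pairs, which the labels do not state. With the replicate number as a block, the difference in window peaks was 13 (exact sign-flip p = 0.25, the smallest possible), limma called 0 regions, and 3 window regions had an unadjusted p under 0.05 instead of 2. The block moved no other value across its threshold.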
